A study of Mus musculus with 16 samples.

Results

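The RNAs of 9 genes that set the passage of a cell from G1 into DNA synthesis were followed in protrusions and cell bodies of mouse fibroblasts with and without knockdown of Apc. They were chosen by name and comprise the D cyclins Ccnd1, Ccnd2 and Ccnd3, their kinases Cdk4 and Cdk6, the inhibitors Cdkn1a (p21) and Cdkn1b (p27), the retinoblastoma gene Rb1, and Myc. All 9 were present among the 13015 genes of the expression table. The cells were NIH/3T3, an immortalised mouse fibroblast line that is known to lack the Cdkn2a locus and that was not authenticated in the study. They were transfected with a non-targeting siRNA (siControl) or an siRNA to Apc (siAPC), serum-starved, left for 2 h on filters with 3.0 µm pores, and drawn by lysophosphatidic acid (LPA) below the filter for 1 h. Protrusions (Ps) were collected from under the filter and cell bodies (CB) from above it, so that CB and Ps of siControl cells and CB and Ps of siAPC cells formed 4 groups, each with 4 libraries. Cells of every group were fixed in dilute paraformaldehyde before collection, so all groups shared starvation, transfection, LPA and fixation. The study calls the replicates independent. The labels do not say whether they were separate cultures, and p-values measure the spread between these libraries. Which of the Apc siRNAs was used for sequencing is not given in the sources used here.

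D cyclins are unstable proteins made in response to growth factors. They bind Cdk4 or Cdk6, and the complexes phosphorylate the retinoblastoma protein, which otherwise holds E2F transcription factors in check; p21 and p27 bind these complexes and inhibit Cdk2. Apc is part of the complex that marks beta-catenin for destruction, and Ccnd1 and Myc have long been studied as genes that beta-catenin and its TCF/LEF partners can activate. Apc protein also binds microtubules, and in migrating fibroblasts it is needed to bring a group of RNAs to protrusions. The measurements below are of RNA only and carry no information on the proteins or on cell cycle phase.

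Values are log2 CPM, that is, the log2 of read counts normalized to the scaled size of each library. Libraries held 13466225 to 20296087 reads in listed genes. The fibroblast marker list was present for 10 of 12 genes, most of its summed level coming from collagens, Fn1, Vim and S100a4. That sum did not overlap between groups, at 37201 to 40563 CPM in siControl CB, 47456 to 52555 in siAPC CB, 22562 to 24835 in siControl Ps and 27621 to 30112 in siAPC Ps. Not every listed marker followed that sum. Vim and S100a4 were higher in Ps, with siControl CB and Ps means of 12.07 and 12.89 and of 10.88 and 11.57 log2 CPM. Col1a1 (13.54 and 12.21), Col1a2 (13.11 and 11.66) and Fn1 (13.19 and 11.98) were lower there. In siAPC CB these genes rose to 13.91, 13.46 and 13.77, whereas Col3a1 went from 11.17 to 11.02 and Pdgfra from 6.41 to 6.01. Thy1 had 1 to 13 reads per library. Dcn group means were 1.82 CPM in siControl CB and 1.78 in siControl Ps against 13.3 in siAPC CB and 15.4 in siAPC Ps. By the means of log2 CPM, Dcn was 7.44-fold higher with siAPC in CB and 8.55-fold higher in Ps. Fap and Lum were not among the listed genes; of the markers of other cell types, Epcam, Krt18, Krt19, Cdh5, Kdr, Ptprc, Itgam and Adgre1 were not listed either. The listed ones were at low levels, with group means of 6.52 to 7.93 CPM for Krt8, 1.93 to 2.23 for Cdh1, 3.82 to 5.59 for Cd68 and 0.31 to 0.52 for Pecam1. The nuclear RNAs Malat1 and Neat1 together reached 643 to 892 CPM in siControl CB and 126 to 308 CPM in siControl Ps, and 422 to 572 CPM in siAPC CB against 105 to 238 CPM in siAPC Ps. The part of these RNAs and of the fibroblast markers in the differences below was not tested. Apc itself was lower with siAPC by 1.67 on the log2 scale in CB (adjusted p = 0.000142) and by 1.84 in Ps (adjusted p = 3.11e-05; limma throughout, with Benjamini-Hochberg adjustment over all genes). In each group the deviations of libraries from the group mean were related to the GC content of the genes, with Spearman correlations from -0.65 to -0.53 over 9878 genes in the most negative library (siControl CB replicate 3 and replicate 2 of the other groups) and from -0.04 to 0.54 in the others. These 4 are called the GC-negative libraries; since deviations within a group sum to 0, positive values stand against them, as in siAPC CB replicate 3 (0.54). Results that rest on them are given with and without them. Scaling to total reads instead of the deposited scaling lowered the median Ps against CB difference of all genes from 0.00 to -0.30 in siControl and from 0.02 to -0.14 in siAPC, and raised that of siAPC against siControl in Ps from -0.03 to 0.14, so all differences below are relative to the deposited scaling.

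For the kinases, the sequence around the start site bears on Myc and TCF/LEF, whose known binding letters can be searched in it. RefSeq promoter windows (250 bases before to 50 after a start, GRCm38.p6) were held for 5 of the 9 genes: Ccnd3, Cdk4, Cdk6, Cdkn1a and Cdkn1b. The E-box bound by Myc and Max (CACGTG, which reads alike on both strands), the TCF/LEF core (CTTTGA) and an E2F element (TTTNNCGC) were looked for on both strands, and no matches overlapped. The windows of both kinases held E-boxes, which are shown here in capitals; the other 5 windows, of Ccnd3, Cdkn1a and Cdkn1b, held 0 matches to any of these motifs.
Cdk4, chr10:127063285-127063584, plus strand: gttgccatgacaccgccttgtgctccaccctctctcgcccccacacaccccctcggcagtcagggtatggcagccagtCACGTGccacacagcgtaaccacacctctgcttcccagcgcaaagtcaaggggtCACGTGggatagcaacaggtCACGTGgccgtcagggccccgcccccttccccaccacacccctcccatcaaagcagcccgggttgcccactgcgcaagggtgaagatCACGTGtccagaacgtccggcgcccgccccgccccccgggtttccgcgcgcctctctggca
Cdk6, chr5:3343643-3343942, plus strand: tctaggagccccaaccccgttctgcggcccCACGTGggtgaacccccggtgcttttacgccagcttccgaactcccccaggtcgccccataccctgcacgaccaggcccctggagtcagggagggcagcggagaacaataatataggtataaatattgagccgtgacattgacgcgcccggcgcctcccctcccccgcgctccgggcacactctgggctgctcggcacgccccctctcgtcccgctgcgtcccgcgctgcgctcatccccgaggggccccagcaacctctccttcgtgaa

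The Cdk4 window held 4 E-boxes, at -172, -118, -98 and -11 from the start site, and 1 TCF/LEF core at -51. Of 32851 mouse promoter windows, 7.15% held at least 1 E-box and 8 windows (0.0244%) held 4 or more. The Cdk6 window held 1 E-box at -220 and 1 E2F element at -198; TTTNNCGC was in 5.17% of windows and CTTTGA in 16%. These matches describe letters in the windows and are not evidence that a factor bound there.

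Ps and CB differed for 8 of the 9 RNAs in siControl and 6 in siAPC, in a table where most genes differed, and knockdown changed 2 of them at the adjusted threshold. In siControl, Ccnd1, Ccnd2, Ccnd3, Cdk4 and Rb1 were called higher in Ps at an adjusted p below 0.05, and Cdkn1a, Cdkn1b and Myc lower. The background was 29.1% of all genes called higher in Ps and 31.2% called lower. In siAPC, 3 of the 9 were called higher in Ps (Ccnd1, Ccnd2 and Rb1) and the same 3 lower, with 29.8% and 30.9% of all genes called. The median difference of the 9 was 0.21 in siControl and 0.10 in siAPC, against 0.00 and 0.02 for all genes. With siAPC, Ccnd1 was called higher in CB and in Ps, and Ccnd2 lower in Ps; all genes were called higher in 7.52% and lower in 5.87% of cases in CB, and in 10.7% and 11.2% in Ps. The median of the 9 was -0.05 in CB and -0.08 in Ps, near the -0.04 and -0.03 of all genes. These comparisons share groups of libraries, so they are not independent of each other.

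**Figure D1:**
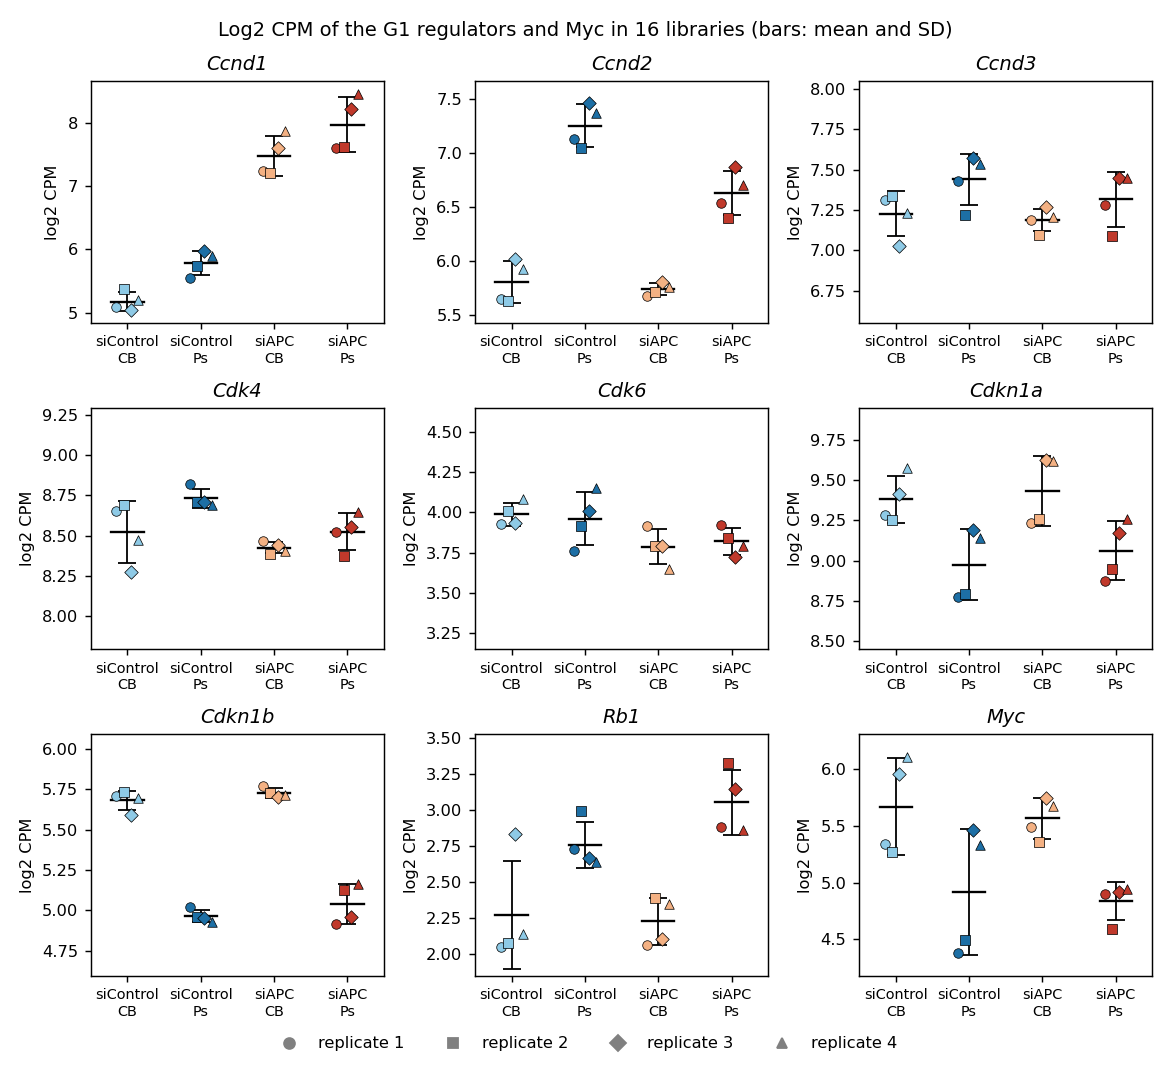
Deposited log2 CPM (vertical axes, which differ between panels) of each gene in the 4 groups, with 1 symbol per library, shaped by replicate number, and bars for the mean and SD of 4 libraries. Ccnd1 separates the siAPC groups (7.21 to 8.46) from the siControl groups (5.04 to 5.98), and Ccnd2 separates siControl Ps (7.04 to 7.46) from siAPC Ps (6.40 to 6.87).

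Ccnd1 (ENSMUSG00000070348.5, chr7:144929931-144939925 of mm10, minus strand) encodes the D cyclin most responsive to mitogens, and it rose about as much with siAPC in both compartments. In siControl CB its replicates 1 to 4 had log2 CPM of 5.09, 5.37, 5.04 and 5.21 (572 to 764 reads), and in siAPC CB 7.23, 7.21, 7.61 and 7.87 (2889 to 4108 reads). In siControl Ps they had 5.54, 5.74, 5.98 and 5.89, and in siAPC Ps 7.59, 7.61, 8.21 and 8.46. Every siAPC library was above every siControl library, and within siAPC replicates 3 and 4 were the higher ones in both compartments. The increase was 4.93-fold in CB (95% interval 3.83 to 6.33; log2 2.30 ± 0.17 SE; adjusted p = 2.346e-08) and 4.54-fold in Ps (3.53 to 5.83; log2 2.18 ± 0.17; adjusted p = 3.542e-08). The increase without the 4 GC-negative libraries was 2.35 in CB and 2.29 in Ps.

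Ccnd1 RNA was also moderately higher in Ps than in CB, by 0.61 on the log2 scale in siControl (adjusted p = 0.00499) and by 0.49 in siAPC (adjusted p = 0.0193), in 4 of 4 same-numbered pairs in each. Here and below, pairs by number are only a description, since the numbers were not shown to pair individual libraries. The groups did not overlap in siControl and did in siAPC. The change of this difference with siAPC was -0.12, with an interval from -0.63 to 0.39 (adjusted p = 0.982). Scaled to total reads, neither difference was called (0.31 and 0.34). In siAPC the call also ended without any of 4 libraries, namely CB replicates 1 and 2 and Ps replicates 3 and 4, with values of 0.33 to 0.41. On the opposite strand, 1100 of the 4709 exon bases of Ccnd1 overlap Oraov1 (LTO1), and the sources used here do not say whether the counting took account of strand. Oraov1 itself had 3.90 to 3.99 in siControl CB and 4.03 to 4.26 in siAPC CB, and its change of 0.21 was not called.

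Ccnd2 (ENSMUSG00000000184.12, chr6:127125162-127152193, minus strand), a D cyclin of many proliferating cell types, differed most between the compartments, and its level in Ps fell with siAPC. In siControl its log2 CPM was 5.65, 5.63, 6.02 and 5.93 in CB and 7.12, 7.04, 7.46 and 7.36 in Ps (1613 to 2673 reads). In siAPC it was 5.68, 5.72, 5.81 and 5.76 in CB and 6.53, 6.40, 6.87 and 6.70 in Ps. The CB libraries of both siRNAs overlapped, and the siAPC Ps libraries lay between CB and siControl Ps with no overlap with either. Ps exceeded CB 2.72-fold in siControl (log2 1.44 ± 0.11 SE, adjusted p = 1.739e-09) and 1.85-fold in siAPC (log2 0.89 ± 0.11, adjusted p = 1.078e-06). Knockdown lowered Ccnd2 in Ps to 0.65 of control (log2 -0.62 ± 0.11, adjusted p = 0.000356), while the difference in CB was -0.07, with an interval from -0.29 to 0.16 (adjusted p = 0.749).

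The test of the change in the Ps to CB difference gave -0.55 for Ccnd2, with an interval from -0.87 to -0.23 and an unadjusted p of 0.00185 that did not survive adjustment over all genes (adjusted p = 0.789). In that test 0.0% of all genes were called higher and 0.0231% lower (3 genes), while 492 genes had an unadjusted p below 0.05, with Ccnd2 the only one of the 9. Replicate numbers were not shown to pair the siControl CB and Ps libraries, so the values by number are a description. The same-numbered Ps minus CB values of Ccnd2 were 1.47, 1.41, 1.44 and 1.44 in siControl and 0.86, 0.69, 1.07 and 0.94 in siAPC. In this matching by number, all 4 siAPC values were below all 4 siControl values, as for 1.58% of all genes. The change was -0.63 without the GC-negative libraries and -0.41 when scaled to total reads, and was called in neither. By the rule used in the study (more than 2-fold higher in Ps in siControl at p below 0.05, and a lower ratio in siAPC at p below 0.1), Ccnd2 counted as Ps-enriched, as did 7.19% of all genes, and as APC-dependent, as did 0.676%. No other of the 9 met either criterion. These shares come from the fit made here, with 936 and 88 genes, and the study's own counts differ from them.

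**Figure D2:**
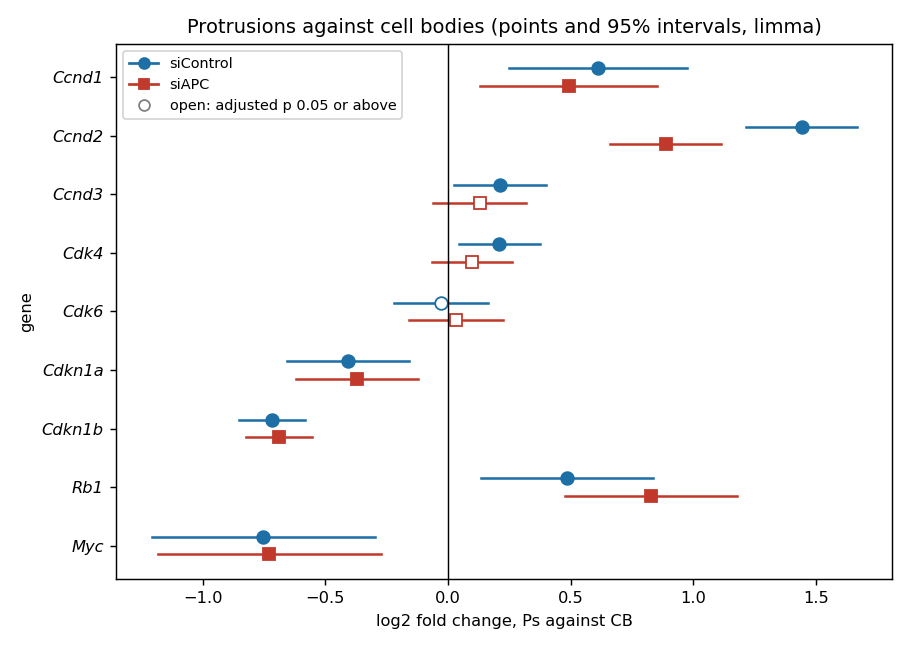
Log2 fold change of Ps against CB (horizontal axis) for each gene in siControl (circles) and siAPC (squares), with 95% intervals from limma; open symbols have an adjusted p of 0.05 or above. Ccnd2 has the highest values (1.44 and 0.89), and Cdkn1b and Myc the lowest (-0.72 and -0.75 in siControl).

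Ccnd3 (ENSMUSG00000034165.16, chr17:47505051-47599691, plus strand), the third D cyclin, varied little. Its log2 CPM was 7.31, 7.34, 7.03 and 7.23 in siControl CB and 7.43, 7.22, 7.57 and 7.53 in siControl Ps. The groups overlapped, and the difference of 0.21 passed the threshold only just (adjusted p = 0.0497). The call ended under 13 alternatives, some of which left out only a siAPC library. It was kept without the GC-negative libraries (0.22, adjusted p = 0.00515) and under quantile normalization (0.24, adjusted p = 0.00435). The difference turned to -0.09 when scaled to total reads, so its direction depends on the scaling. In siAPC the CB libraries had 7.10 to 7.27 and the Ps libraries 7.09 to 7.45, and the difference was 0.13 (interval -0.06 to 0.32, adjusted p = 0.227). It was called without the GC-negative libraries (0.17, adjusted p = 0.0205) and under quantile normalization (0.22, adjusted p = 0.00889). Knockdown moved Ccnd3 by -0.04 in CB (interval -0.23 to 0.15) and by -0.12 in Ps (interval -0.31 to 0.07), neither of them called.

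Per exon length, these changes gave a different mixture of D cyclin RNAs in the 4 groups. In siControl CB, Ccnd3 made up 55.5% ± 3.1 (SD, n = 4) of the summed CPM per kb of the D cyclins, Ccnd1 25% ± 1.5 and Ccnd2 19.5% ± 3.5. In siControl Ps, Ccnd2 reached 33.9% ± 0.8 and Ccnd3 41.5% ± 1.9, while Ccnd1 remained at 24.6% ± 1.9. With siAPC, Ccnd1 had the largest share by this measure, at 62.8% ± 4.5 in CB and 64.9% ± 4.6 in Ps. Ccnd2 then made up 9.47% ± 1.2 in CB and 12.9% ± 1.7 in Ps. The lowest Ccnd1 share in a siAPC library was 59.1% and the highest in a siControl library 27.0%. With siControl the summed level was 30.8 CPM per kb in CB and 47.9 in Ps, and with siAPC it was 60.9 in CB and 83.9 in Ps. Lengths are the union of annotated exons (4709 bases for Ccnd1, 9409 for Ccnd2 and 8775 for Ccnd3). The shares depend on that annotation and not on the scaling between libraries. Before division by length, mean CPM in siAPC was 182 for Ccnd1 and 146 for Ccnd3 in CB, and 259 and 160 in Ps. With a shorter length for Ccnd3 the order of the D cyclins in siAPC could therefore differ.

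**Figure D3:**
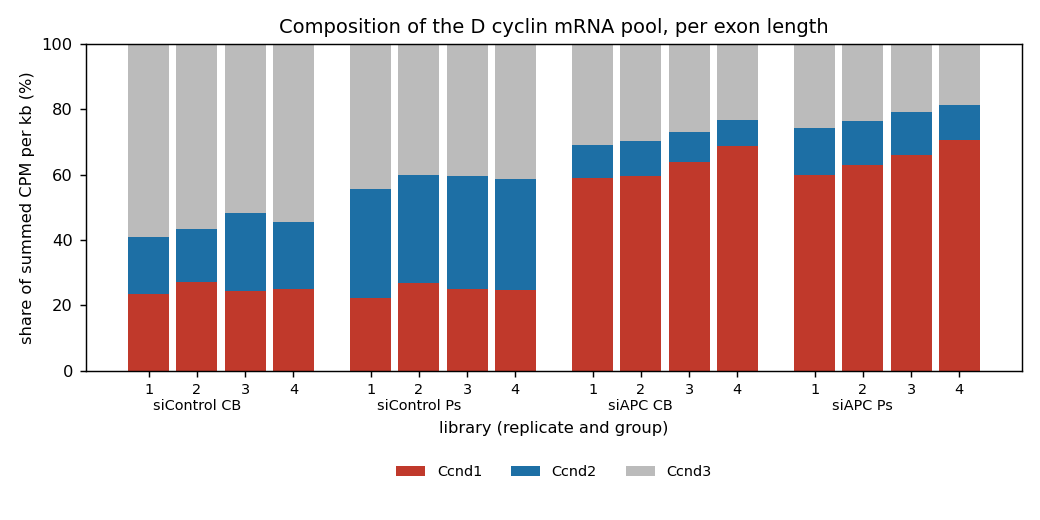
Share of each D cyclin in the summed CPM per kb of exon (vertical axis, percent) in each of the 16 libraries (horizontal axis, by replicate and group). Ccnd1 makes up 22.3% to 27.0% in siControl libraries and 59.1% to 70.7% in siAPC libraries.

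The kinases had no called change with knockdown. Cdk4 (ENSMUSG00000006728.12, chr10:127063534-127067920, plus strand) had log2 CPM of 8.65, 8.69, 8.27 and 8.47 in siControl CB and 8.82, 8.71, 8.71 and 8.69 in siControl Ps. The groups did not overlap, though by a margin under 0.01, and the difference was 0.21 (adjusted p = 0.0275). It was not called without the GC-negative libraries (0.13, adjusted p = 0.0771), nor without siControl CB replicate 3 or 4 or siControl Ps replicate 1, and it turned to -0.09 when scaled to total reads. In siAPC, CB had 8.38 to 8.46 and Ps 8.37 to 8.65, and the difference was 0.10 (adjusted p = 0.293).

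The siAPC Ps libraries of Cdk4 all lay below those of siControl Ps, with a difference of -0.21 that missed the threshold (interval -0.37 to -0.04, adjusted p = 0.0653); in CB it was -0.10 (adjusted p = 0.473). It passed without siControl CB replicate 3 or siAPC Ps replicate 4 (-0.21 and -0.25). Of its 3249 exon bases, 641 overlap Tspan31 on the opposite strand, which had the opposite sign between compartments, at -0.43 in siControl.

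Cdk6 (ENSMUSG00000040274.11, chr5:3341485-3531008, plus strand) was held by few reads, 168 to 354 per library. In CB its log2 CPM was 3.93, 4.01, 3.93 and 4.08 with siControl and 3.91, 3.79, 3.79 and 3.65 with siAPC. In Ps it ranged from 3.76 to 4.15 with siControl and from 3.72 to 3.92 with siAPC. Ps and CB differed by -0.03 in siControl (interval -0.22 to 0.16) and 0.03 in siAPC (interval -0.16 to 0.23). Every siAPC CB library was below every siControl CB library, and the difference of -0.20 had an adjusted p of 0.168. In Ps it was -0.14 (adjusted p = 0.319), and the groups overlapped. Scaled to total reads, Cdk6 was called lower in siControl Ps than CB (-0.32).

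Both inhibitors were lower in Ps than in CB to a like extent with either siRNA, and neither changed by a called amount with knockdown. Cdkn1b (ENSMUSG00000003031.14, chr6:134920401-134925513, plus strand), which encodes p27, had 5.71, 5.73, 5.59 and 5.70 in siControl CB and 5.02, 4.96, 4.95 and 4.93 in siControl Ps. In siAPC it had 5.77, 5.73, 5.70 and 5.71 in CB and 4.92, 5.13, 4.96 and 5.17 in Ps. The Ps and CB libraries were well apart with either siRNA. The difference was -0.72 ± 0.06 SE in siControl (Ps at 0.608 of CB, adjusted p = 1.675e-08) and -0.69 ± 0.06 in siAPC (0.621 of CB, adjusted p = 3.646e-08), and their change was 0.03, with an interval from -0.16 to 0.22. Knockdown differences were 0.05 in CB and 0.08 in Ps; scaled to total reads the latter was called, at 0.24.

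Cdkn1a (ENSMUSG00000023067.14, chr17:29090976-29100727, plus strand), which encodes p21, a target of p53, had the highest mean level per exon length of the 9 in each group. It had 9.28, 9.25, 9.42 and 9.57 in siControl CB and 8.78, 8.79, 9.19 and 9.14 in siControl Ps. In siAPC it had 9.23, 9.26, 9.63 and 9.62 in CB and 8.87, 8.95, 9.17 and 9.26 in Ps. All 4 same-numbered pairs were lower in Ps with each siRNA, by -0.41 in siControl (adjusted p = 0.00613) and -0.37 in siAPC (adjusted p = 0.0112). Knockdown differences were 0.05 in CB (interval -0.20 to 0.30) and 0.09 in Ps (interval -0.16 to 0.34).

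Rb1 (ENSMUSG00000022105.6, chr14:73183673-73325822, minus strand), the substrate of the Cdk4 and Cdk6 complexes, was higher in Ps, opposite to the inhibitors. Its log2 CPM was 2.05, 2.07, 2.83 and 2.14 in siControl CB (69, 71, 165 and 81 reads) and 2.73, 3.00, 2.67 and 2.64 in siControl Ps. In siAPC it was 2.06, 2.39, 2.10 and 2.35 in CB and 2.88, 3.33, 3.15 and 2.86 in Ps. The groups overlapped in siControl through CB replicate 3, a GC-negative library, and did not overlap in siAPC. The difference was 0.49 in siControl (adjusted p = 0.0179) and 0.83 in siAPC (adjusted p = 0.000316).

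In siControl the Rb1 difference was 0.67 without CB replicate 3 and 0.59 without all 4 GC-negative libraries, both called. It was not called when any of CB replicates 1, 2 and 4 or Ps replicate 2 was left out (0.41 to 0.44), nor when scaled to total reads (0.19). The change with siAPC was 0.34, with an interval from -0.15 to 0.84 (adjusted p = 0.981). Knockdown differences were -0.05 in CB and 0.30 in Ps, the latter higher in 4 of 4 same-numbered pairs with an adjusted p of 0.236. Rcbtb2, which overlaps 488 of its 6015 exon bases on the opposite strand, was also higher in Ps, by 0.41 in siControl, while Lpar6, which overlaps 408 bases there, differed by -0.31 and was not called.

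**Figure D4:**
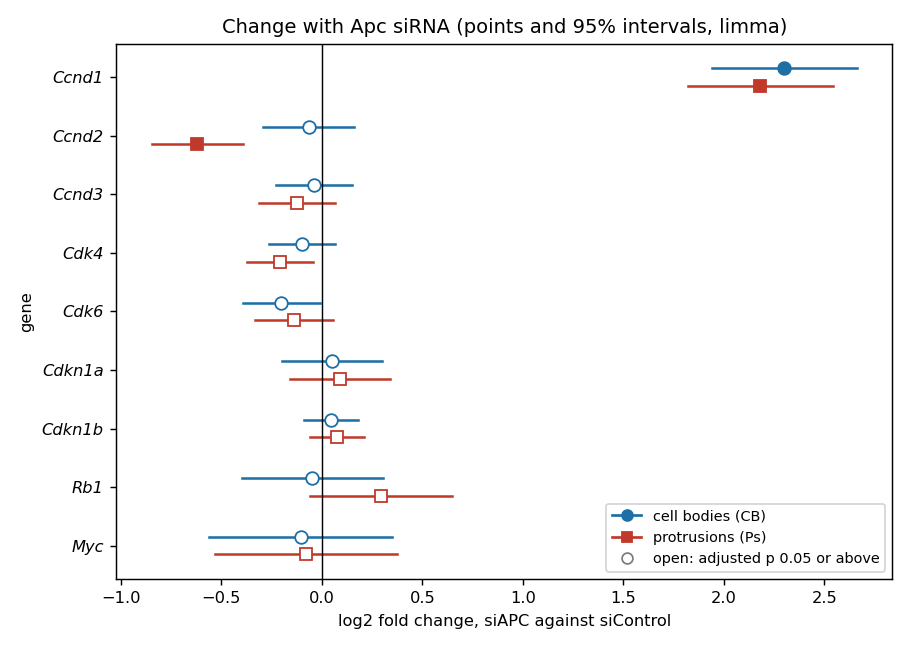
Log2 fold change of siAPC against siControl (horizontal axis) for each gene in CB (circles) and Ps (squares), with 95% intervals from limma; open symbols have an adjusted p of 0.05 or above. Ccnd1 stands at 2.30 and 2.18, Ccnd2 at -0.07 in CB and -0.62 in Ps, and the intervals of the other genes lie between -0.56 and 0.65.

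Myc (ENSMUSG00000022346.15, chr15:61985391-61990374, plus strand), the transcription factor of growth and ribosome genes, was lower in Ps and showed no called change with siAPC. It had 5.34, 5.27, 5.96 and 6.11 in siControl CB and 4.38, 4.49, 5.46 and 5.33 in siControl Ps. In siAPC it had 5.49, 5.35, 5.74 and 5.68 in CB and 4.90, 4.59, 4.91 and 4.94 in Ps. In siControl the libraries fell into a lower pair (replicates 1 and 2) and a higher pair (replicates 3 and 4) in both compartments, so that the groups overlapped although each pair was lower in Ps. The difference was -0.75 in siControl (adjusted p = 0.00566) and -0.73 in siAPC (adjusted p = 0.0071). In siControl it was -0.52 and not called without the GC-negative libraries (adjusted p = 0.0614). Knockdown differences were -0.10 in CB (interval -0.56 to 0.35, adjusted p = 0.807) and -0.08 in Ps (interval -0.53 to 0.38, adjusted p = 0.854), and these intervals do not reach the size of the Ccnd1 change.

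The split by replicate number was not limited to Myc. Libraries 3 and 4 were above libraries 1 and 2 in all 4 groups for Ccnd2, Cdkn1a and Myc, and in 3 of the 4 groups for Ccnd1 and Ccnd3. This held in all 4 groups for 218 of 9652 genes (2.26%). The labels do not say what the replicate numbers stand for.

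Levels per exon length put Cdkn1a and Cdk4 first and second in every group. In siControl CB the order was Cdkn1a (188 ± 20 CPM per kb, SD, n = 4), Cdk4 (114 ± 15), Myc (19.4 ± 5.7), Ccnd3 (17.1 ± 1.6), Cdkn1b (11.3 ± 0.5), Ccnd1 (7.71 ± 0.80), Ccnd2 (5.99 ± 0.81), Cdk6 (1.13 ± 0.06) and Rb1 (0.83 ± 0.24). The libraries of Myc and Ccnd3 overlapped, as did those of Cdk6 and Rb1, and the other neighbours did not. In siControl Ps, Ccnd2 (16.3 ± 2.2) overlapped Ccnd3 (19.9 ± 2.1) and was above Ccnd1 (11.8 ± 1.5), and Cdkn1a (143 ± 22) overlapped Cdk4 (131 ± 5). With siAPC, Ccnd1 was in the third place, at 38.6 ± 8.7 in CB and 55.1 ± 16.6 in Ps, below Cdkn1a and Cdk4 and above all the others without overlap. In siAPC Ps, Ccnd2 (10.6 ± 1.5) and Myc (10.6 ± 1.1) overlapped. Cdk6 and Rb1 were the lowest in every group.

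Other genes of the pathway were taken from lists of known members. The lists were chosen with earlier results of these data known. Their counts beside the shares of all genes are therefore a description and not a test. Of 17 E2F targets, the DNA synthesis genes that act downstream of Rb1, 11 rose with siAPC in CB and 13 in Ps, where 7.52% and 10.7% of all genes rose, and 0 fell at the adjusted threshold. Their median was 0.61 in CB and 0.65 in Ps, against -0.04 and -0.03 for all genes. Ccna2, the cyclin of S phase, rose by 0.94 in CB and 1.05 in Ps; Tk1, thymidine kinase, by 0.89 and 0.87; Rrm2, a subunit of ribonucleotide reductase, by 0.88 and 0.78. Mcm5, a subunit of the replicative helicase, rose by 0.77 in CB. Those not called in Ps, named after their values were seen, were Mcm4, Pcna, Cdc6 and Pola1, at 0.25, 0.19, 0.49 and 0.40. Without the GC-negative libraries 12 and 15 were called (7.45% and 11.7% of all genes), and scaled to total reads 14 and 15 (8.41% and 22.6%). Between Ps and CB, 3 were higher and 2 lower in siControl and 4 and 1 in siAPC, all below the shares of all genes (29.1% and 31.2%, 29.8% and 30.9%).

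Of 32 other G1/S regulators 28 were listed, and Cdkn1c, Cdkn2a, Cdkn2b and E2f6 were not analysed here. With siAPC, 3 of the 28 rose in CB, near the 7.52% of all genes, namely Cks1b (0.44), a cofactor in p27 degradation, Tfdp2 (0.34), an E2F partner, and E2f1 (0.32), and 0 fell at the adjusted threshold. In Ps, 6 rose, led by E2f8 (0.87), Rbl1 (0.74), a relative of Rb1, E2f1 (0.49) and Ccne1 (0.39), the G1/S cyclin. The 1 that fell, named after its values were seen, was Cdc37 (-0.22), a chaperone of Cdk4. The list medians were 0.00 and 0.03. Scaled to total reads, 11 rose in Ps, where 22.6% of all genes then rose and 4.23% fell, against 10.7% and 11.2% with the deposited scaling. Between Ps and CB, 6 of the 28 were higher and 6 lower in siControl, each below the share of all genes (29.1% and 31.2%), with E2f2 at -1.02, Cdk2 at -0.84, Ambra1, which directs D cyclin degradation, at -0.66 and Ccnh, of the Cdk-activating kinase, at 0.66. In siAPC 7 were higher and 7 lower, also below the shares of all genes (29.8% and 30.9%), led by Ccne2 at 1.52, which rests on 4 to 9 reads per library in CB and 10 to 18 in Ps. Scaled to total reads these counts were 2 and 19 in siControl, where 15.4% of all genes were then higher and 47.6% lower, and 5 and 10 in siAPC (21.5% and 39.3%).

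**Figure D5:**
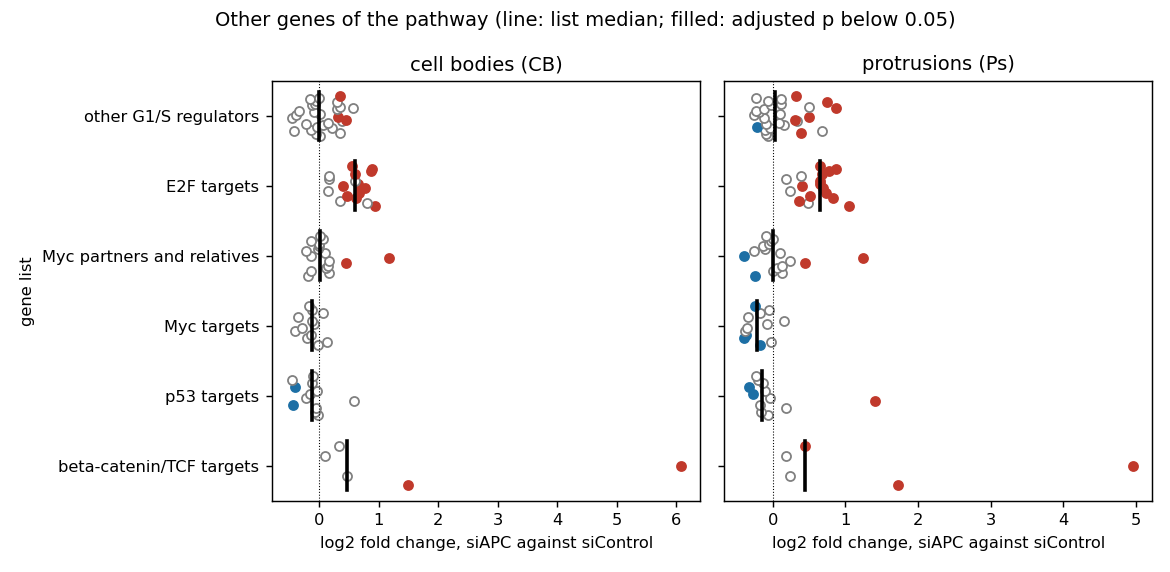
Log2 fold change of siAPC against siControl (horizontal axes) for each listed gene of 6 lists (rows) in CB (left) and Ps (right), with the list median as a line; red and blue points are called higher and lower, and open points are not called. The E2F targets lie to the right of 0, with medians of 0.61 and 0.65; Rnf43, at 0 reads in all siControl libraries, is plotted at its fitted value, which depends on the 0.5 reads added.

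Of 20 partners and relatives of Myc 17 were listed. Mxd3, a Max partner of the Mad family, rose with siAPC by 1.18 in CB and 1.24 in Ps, and Mnt, another Max partner that opposes Myc, by 0.46 and 0.44. In Ps, Mxd4 (-0.40) and Bin1 (-0.24) fell. These counts of 2 among 17 stand beside 7.52% of all genes that rose in CB, and 10.7% that rose and 11.2% that fell in Ps. Medians were 0.01 in both compartments, and scaled to total reads 7 rose and 0 fell in Ps, beside 22.6% and 4.23% of all genes. In siControl 2 of the 17 were higher in Ps, Mxd4 (0.83) and Pvt1 (0.68), and 7 lower, against 29.1% and 31.2% of all genes, with Trrap, a coactivator scaffold, at -0.73 and Mxd1 at -0.71. Pvt1, the noncoding neighbour of Myc, thus had the opposite sign to Myc between compartments, also in siAPC (0.64).

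Of 12 targets of Myc, 0 were called with siAPC in CB (median -0.12) and 4 fell in Ps (median -0.21), where 11.2% of all genes fell: Cad (-0.40), of pyrimidine synthesis, Fbl (-0.36), of rRNA methylation, Srm (-0.24), of polyamine synthesis, and Apex1 (-0.18), of DNA repair. This count was 1 when scaled to total reads (4.23% of all genes) and 7 without the GC-negative libraries (14.0%), which gave 2 in CB (8.51%). Between compartments 7 of the 12 were higher in Ps and 2 lower in siControl, against 29.1% and 31.2% of all genes. Among them were the mRNAs of the nucleolar proteins Npm1 (1.86) and Ncl (1.64). Of 13 targets of p53 12 were listed; Cdkn1a was not among them. With siAPC 2 fell in CB, Ccng1 (-0.45) and Sesn1 (-0.40), where 5.87% of all genes fell. In Ps 2 fell, Sesn1 (-0.33) and Phlda3 (-0.26), and 1 rose, Gdf15 by 1.41 from 2 to 4 reads per library to 7 to 17, where 11.2% of all genes fell and 10.7% rose. List medians were -0.12 and -0.14, against -0.04 and -0.03 over all genes.

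Of 10 targets of beta-catenin and TCF 5 were listed, and Axin2, Nkd1, Sp5, Notum and Dkk1 were not. Rnf43, a negative regulator of Wnt receptors, had 0 reads in all 8 siControl libraries, 25 to 52 in siAPC CB and 11 to 34 in siAPC Ps. It entered the table through its siAPC libraries alone, so a rise was fixed by the expression cutoff and its values are a description. Against 3 reads per library it was at least 11.6-fold higher in CB and at least 5.50-fold higher in Ps. Apcdd1, a Wnt inhibitor, rose by 1.49 in CB and 1.73 in Ps, and Znrf3 by 0.44 in Ps, where 7.52% of all genes rose in CB and 10.7% in Ps. Those called in neither compartment, named after their values were seen, were Tcf7 (0.10 and 0.18) and Lef1 (0.46 and 0.23), a gene with 1 to 16 reads per library.

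The genes with the pattern most like that of each of the 9 were found by Pearson's r of log2 CPM over the 16 libraries among 9652 genes, as a description, since all values share these libraries and their scaling. For Ccnd1 these were Rhou (r = 0.996), a small GTPase, and Prrx2 (0.991), a homeobox factor. Rhou rose with siAPC by 1.38 in CB and 1.52 in Ps, and Prrx2 by 1.33 and 1.38. For Ccnd2 they were Apobr (0.983) and Map4k4 (0.982), a kinase of cell migration. Apobr was higher in Ps by 1.02 in siControl and 0.58 in siAPC, and Map4k4 by 0.64 and 0.40. For the other genes they were Snrpb and Gnai2 (Ccnd3), Cct7 and Stoml2 (Cdk4), Cd200 and Bag5 (Cdk6), Vps37b and Gdpd5 (Cdkn1a), Mief2 and Pnpla7 (Cdkn1b), Arhgap18 and Usp1 (Rb1), and Pi16 and Aacs (Myc). The values were lowest for Cdk6 (0.815 and 0.805) and between 0.949 and 0.985 for the rest of these. Among the 9 themselves the highest were 0.892 for Myc with Cdkn1a and 0.799 for Ccnd3 with Cdk4, and Ccnd1 had none above 0.300.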

How the data were processed

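RNA of protrusions and cell bodies was sequenced in 16 libraries, 4 per group, with groups taken from the labels. The authors made stranded total RNA libraries, aligned paired reads to mm10 with STAR 2.4.2a, counted them with Rsubread and normalized them with limma 3.26.1. The deposited values are log2 CPM from voom, with 0.5 reads added, relative to a scaled library size. Inverting this gave whole reads for 100% of 208240 values (tolerance 0.01); reads of 13466225 to 20296087 per library were listed. A gene at 3 reads has a log2 value of -2.73 to -1.80, counting error only.

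Here limma 3.58.1 (R 4.3.3; lmFit and eBayes with an intensity trend) was fitted to the log2 values of all libraries and 13015 genes, with 1 mean per group and no block, and tested on simulated data. Calls are at a Benjamini-Hochberg adjusted p below 0.05; SE and intervals are limma's, at 95%. Positions and exon lengths are from GENCODE M21 (mm10), whose release differs from that of the authors. The named genes were the 9 members, Apc, up to 4 called genes with the largest change per list and comparison (1 such gene is not reported here), and the 2 genes most like each member. The members and lists were chosen with earlier results of these data known.

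Same-numbered libraries deviated together for siAPC CB with siAPC Ps (r from 0.416 to 0.617) and siControl Ps with siAPC Ps (0.162 to 0.551). Different-numbered libraries gave r from -0.592 to 0.572 and from -0.484 to 0.347. Their means were lower (-0.165 against 0.502, and -0.112 against 0.345), but the ranges overlapped. The numbers were therefore not shown to pair individual libraries. Alternatives were a replicate block, leaving out libraries, other scalings, voom weights, no trend, 2 reads added, a filter at a mean of 1, and fitting only the groups compared. Counts per list under other settings were added after seeing the data.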

Additional observations from a re-analysis of the deposited data

Results flagged for a closer look

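In 36 sets of 4 libraries (9 genes in 4 groups), 3 held a library that stood far from the other 3 by Dixon's ratio of the gap to the range; chance gives about 1 in 20. Rb1 in siControl CB had a ratio of 0.886, through replicate 3 at 2.83 against 2.05 to 2.14 in the others. Myc in siAPC Ps had 0.881, through replicate 2 at 4.59 against 4.90 to 4.94. Cdk4 in siControl Ps had 0.85, through replicate 1 at 8.82 against 8.69 to 8.71. The Rb1 and Myc libraries are among the 4 GC-negative libraries.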

How the results depend on the processing

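Of 1116 differences of the 9 genes recomputed under alternatives, 1078 kept their side of the threshold, 32 were no longer called and 6 became called; 0 were called in the opposite direction. Of the 1078, 48 that were called in neither setting changed sign, with values of at most 0.20 in size. Of the 32, 2 also changed sign, Ccnd3 (-0.086, adjusted p = 0.385) and Cdk4 (-0.088, adjusted p = 0.203) between Ps and CB in siControl when scaled to total reads. The number higher in Ps in siControl was 5 (29.1% of all genes), and 1 when scaled to total reads (15.4%), 3 with only the groups compared (27.3%), and 2 to 5 when leaving out 1 library. The number higher with siAPC in Ps was 1 (10.7%), and 2 when scaled to total reads (22.6%), and the number lower there was 1 to 2 when leaving out 1 library. The replicate block changed no call of the 9; with it the Ccnd2 change of -0.554 had an SE of 0.088 and an adjusted p of 0.107, with siControl CB and Ps numbers not shown to pair (r from -0.121 to 0.432). The causes were not tested. Rb1 and Cdk6 had the fewest reads.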
